A study of Homo sapiens with 24 samples.

Results

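The Fanconi anaemia and homologous recombination genes were followed in a whole transcriptome sequencing series of ovarian cancer (OC) cells. The group comprised 34 genes, listed by symbol and matched by Ensembl identifier to the deposited count table, and all 34 were found among its 63299 rows and passed the filter on low counts with 20240 genes in all. The cells were A2780, a platinum-sensitive human OC line, and A2780cis, its isogenic platinum-resistant derivative, which received cisplatin at intervals during culture to keep the resistance. Each line was either left untreated in standard growth medium or given 1 μM 5-FdU-ECyd, a dinucleoside drug that joins 5-fluorodeoxyuridine, an inhibitor of thymidylate synthesis, to ethynylcytidine, an inhibitor of RNA synthesis. Cells were harvested 6 h or 12 h later, which gave 8 groups of 3 libraries. Only 1 line of each kind was sequenced, so a difference between the lines is a difference between these cultures. The paper calls the 3 libraries of a group biological replicates, while the labels do not say whether they came from separate flasks. P-values measure only the spread between these libraries, part of which may be technical.

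The Fanconi pathway repairs crosslinks between the DNA strands, the lesion that cisplatin makes. FANCM and FAAP24 bring the core complex to the lesion, the core complex with its ligase subunit FANCL and the conjugating enzyme UBE2T adds ubiquitin to FANCD2 and FANCI, and this pair recruits nucleases that unhook the crosslink. The broken strand is then repaired by homologous recombination: MRE11, RAD50 and NBN together with RBBP8 resect the ends, BRCA1, BARD1, PALB2 and BRCA2 then act with RAD51B, RAD51C, RAD51D, XRCC2 and XRCC3 to build the protein filament on the resected strand, RAD54 proteins drive strand invasion, and BLM with RMI1 and RMI2 takes the joint molecules apart. Several of these genes are inherited cancer genes of the ovary, and many are transcribed mainly in S phase.

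Libraries held between 11077368 and 21901406 counts. The 10 p53 target genes examined rose in all 4 treatment comparisons (10 of 10 each), with a median log2 fold change (log2 FC) of 1.23 and 2.04 after 6 h and 12 h in A2780 and of 1.09 and 2.06 in A2780cis, so the treated libraries carried a drug response in both lines. Of 7 epithelial and ovarian carcinoma markers, KRT19, CDH1, PAX8 and MUC16 had at most 6, 2, 2 and 2 counts in any library, EPCAM at most 1.96 CPM, and KRT8 and KRT18 were low in A2780 and higher in A2780cis (group means of KRT18 1.11 to 2.89 against 23.4 to 26.5 CPM). Markers of blood, endothelial and liver cells were near 0 (at most 3 counts in any library for PTPRC, CD3E, CD14, PECAM1 and VWF). The collagen gene COL3A1 reached 194 to 2168 CPM over the 24 libraries, with group means of 212 to 294 CPM in A2780 and 1349 to 2023 CPM in A2780cis. The other collagen gene examined, COL1A1, was at most 16.0 CPM and differed the other way. Its group means were 5.07 to 14.7 CPM in A2780 and 0.413 to 2.69 CPM in A2780cis.

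Levels are given as CPM, counts scaled to a common library size with TMM normalization, and a value after ± is the SD of 3 libraries. Log2 FC values are those of the fitted model, with ± for the standard error. A gene is said to have risen or fallen where its adjusted p was at most 0.05 in the quasi-likelihood test of edgeR (Benjamini-Hochberg, over the 20240 genes), and all adjusted p-values of single genes come from that test. CPM are shares of the RNA of a library, so fewer cells of a kind, such as cells in S phase, and less of an RNA in each cell cannot be told apart. Rises and falls are relative to the other RNA of a library. A gene said to have risen may have fallen less than most RNA, since amounts per cell were not measured here. The level of every gene in every library is shown in the map of deviations from the mean of each gene.

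**Figure D1:**
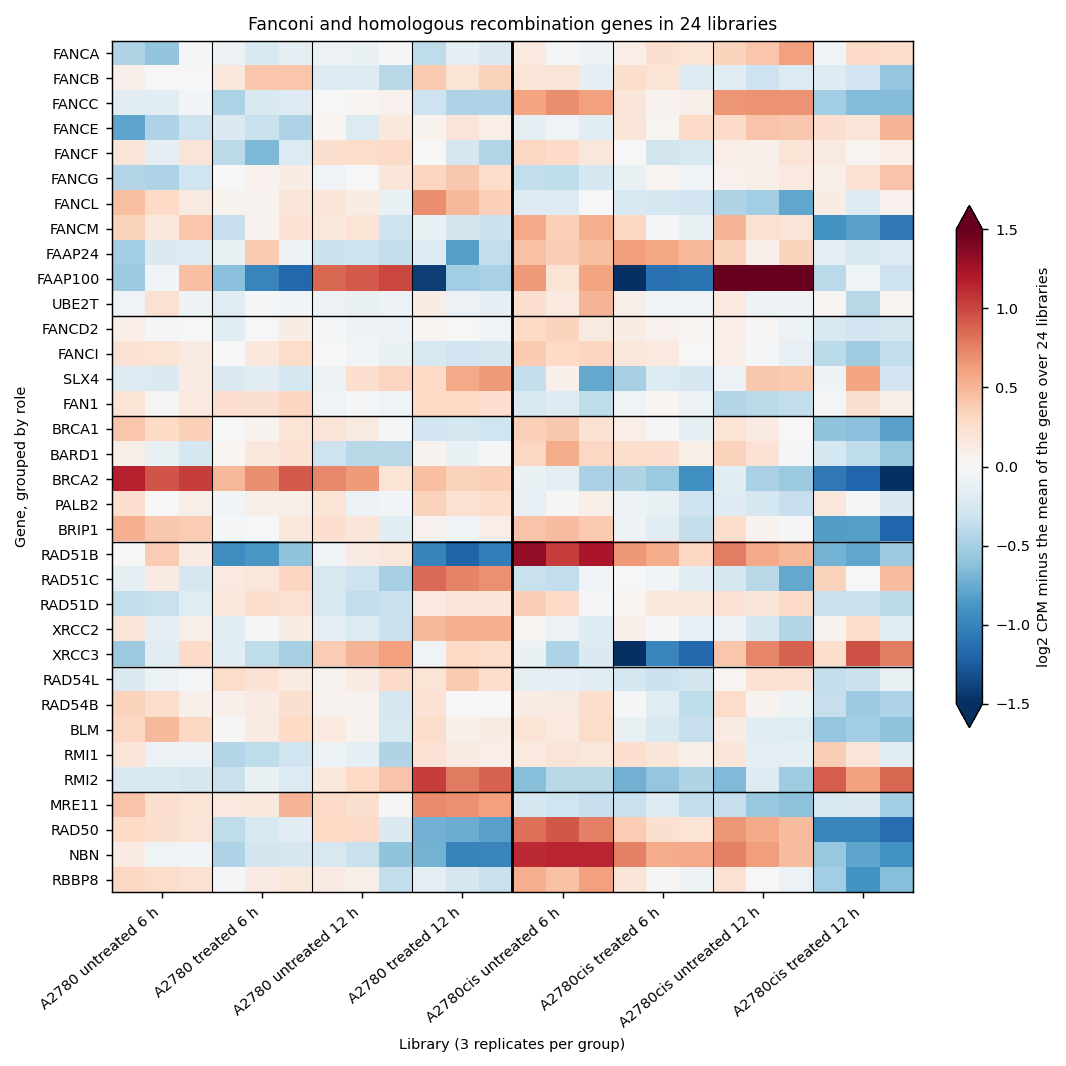
Level of the 34 genes (rows, grouped by role) in the 24 libraries (columns, 3 per group), as log2 CPM minus the mean of the gene over all libraries, with colours capped at 1.5 in either direction. The 3 treated A2780cis libraries of 12 h are blue at BRCA2, BRIP1, FANCC, FANCM, RAD50 and NBN. For FANCC, RAD50 and NBN this is not particular to A2780cis. Their treated 12 h means were 28.5, 58.1 and 85.2 CPM in A2780 and 24.8, 48.1 and 94.2 CPM in A2780cis. RAD51C and RMI2 are mostly red in the treated 12 h libraries of both lines.

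The starts of 6 members with a lower response in A2780cis than in A2780 at 12 h were printed. They are a selection and not those with the smallest p. RAD50 had a smaller adjusted p of the difference (0.00134, edgeR) than FANCM and BLM. Its window holds no CCAAT box or E2F word and is not printed. RAD51D and BARD1 moved in opposite directions in the 2 lines. FANCC, BRIP1, BLM and FANCM fell in A2780cis, and of these only FANCC passed the threshold in A2780 at 12 h. The sequences are the 80 bases upstream of the most upstream RefSeq transcription start of each gene (GRCh38.p14, read 5′ to 3′ on the strand of the gene), with a CCAAT box in either orientation (CCAAT or ATTGG) or an E2F word in capitals.
RAD51D (chr17:35119861-35119940, minus strand): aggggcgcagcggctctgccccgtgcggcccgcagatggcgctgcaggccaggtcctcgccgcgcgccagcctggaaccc
BARD1 (chr2:214809684-214809763, minus strand): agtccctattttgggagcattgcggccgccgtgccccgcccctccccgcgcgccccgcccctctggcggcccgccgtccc
FANCC (chr9:95317710-95317789, minus strand): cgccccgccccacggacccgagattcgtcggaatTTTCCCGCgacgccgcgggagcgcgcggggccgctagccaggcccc
BRIP1 (chr17:61863529-61863608, minus strand): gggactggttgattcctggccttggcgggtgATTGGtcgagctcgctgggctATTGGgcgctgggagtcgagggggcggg
BLM (chr15:90717266-90717345, plus strand): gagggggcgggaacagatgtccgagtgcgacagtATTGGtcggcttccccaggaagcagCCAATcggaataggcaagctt
FANCM (chr14:45135850-45135929, plus strand): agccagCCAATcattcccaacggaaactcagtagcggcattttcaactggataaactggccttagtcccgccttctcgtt
BRIP1 and BLM each carried a pair of CCAAT boxes in this window, FANCM carried 1, FANCC carried the E2F word 46 bases upstream of the start, and no capital word was found in the windows of RAD51D and BARD1. RefSeq promoters (250 bases before to 50 after the start) were matched for 30 of the 34 genes, the exceptions being FANCI, RAD54B, RMI2 and NBN. An E2F word (TTTCCCGC or TTTGGCGC, both strands) was present in 3 of the 30 (10%; FANCC, FANCD2 and XRCC2) and in 2.75% of 27305 genes with a promoter in the table. The CCAAT box was present in 13 of 30 (43.3%) against 39.7%, and the CHR element (TTTGAA, both strands, with no word contained in another) in 4 of 30 (13.3%) against 18.2%. Of the 14 matched members called lower in the 12 h interaction, 5 (35.7%) had a CCAAT box, against 8 of the 16 others (50%). An E2F word was in 3 of the 14 and 0 of the 16, and the CHR element in 2 and 2. These are matches of letters and not binding sites.

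In untreated A2780 cells the levels spanned a wide range. Per kilobase of annotated exon, UBE2T had the highest level at 45.1 CPM, followed by RBBP8 with 22.1, FANCI with 16.7 and RAD54L with 12.3. The lowest were FANCM with 1.41, FANCB with 0.917 and RAD51B with 0.635 CPM per kilobase. The exon length is the union of all annotated transcripts, so these levels per length are rough.

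After 6 h of treatment, a minority of the group had moved in A2780. The drug raised 3 genes (RAD51D, FANCG and RAD54L) and lowered 8 (RAD51B, RAD50, FAAP100, FANCF, BRIP1, RMI1, BRCA1 and NBN), so that 8.82% of the members rose and 23.5% fell, against 16.0% and 13.4% of all genes tested. The median log2 FC of the members was -0.10, against 0.04 over all genes. Scaling by library size alone, which moved the median of all genes to 0.10, gave 6 higher and 6 lower members, while the share of all calls that were higher went from 54.5% to 63.7%. Of these calls 4 held under every alternative setting, and leaving out the first untreated or the first treated A2780 library of 6 h reduced their number from 11 to 6 or 7.

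In A2780cis, 6 h of treatment moved more of the group, and mostly down. FANCG and FAN1 rose and 15 genes fell, among them FAAP100, FANCC, BRIP1, RAD50, RAD51B, XRCC3, NBN, RBBP8 and BLM. This was 5.88% higher and 44.1% lower, against 14.4% and 16.3% of all genes, with a median of -0.19 against 0.00. FANCG rose in both lines, and BRCA1, BRIP1, FAAP100, FANCF, NBN, RAD50 and RAD51B fell in both. The number of calls was 11 in place of 17 without the first untreated library or without the second or the third treated library of 6 h, and scaling by library size alone gave 3 higher and 11 lower members while the share of all calls that were higher went from 47.0% to 61.4%.

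After 12 h in A2780, the group was split. Treatment raised 11 genes (RAD51C, XRCC2, RMI2, FANCB, RAD51D, MRE11, FANCL, RMI1, BARD1, FAN1 and FANCG) and lowered 8 (FAAP100, RAD51B, RAD50, NBN, FANCF, FANCC, BRCA1 and FANCI). The shares were 32.4% and 23.5%, close to the 28.6% and 26.1% of all genes, and the median was 0.08 against 0.02. Scaling by library size alone, which moved the median of all genes from 0.02 to 0.24 and the share of calls that were higher from 52.3% to 70.7%, gave 19 higher and 5 lower members.

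The largest set of calls was that of A2780cis after 12 h, where 19 genes fell and 5 rose. RMI2, RAD51C, FANCL, FAN1 and XRCC2 rose, all of which had also risen in A2780, while the falls were led by FAAP100, RAD50, NBN, RAD51B, FANCC and FANCM. Members thus fell in 55.9% and rose in 14.7%, against 28.9% and 31.0% of all genes tested, and their median was -0.35 against 0.04. Scaling by library size alone gave 9 higher and 17 lower members. Over the 34 genes the summed level was 2018 to 2227 CPM in the untreated and 1545 to 1589.5 CPM in the treated A2780cis libraries of 12 h, with no overlap, whereas in A2780 it was 1761 to 1976 and 1846 to 1949.8 CPM. Of the 24 calls, 21 held under every alternative setting.

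**Figure D2:**
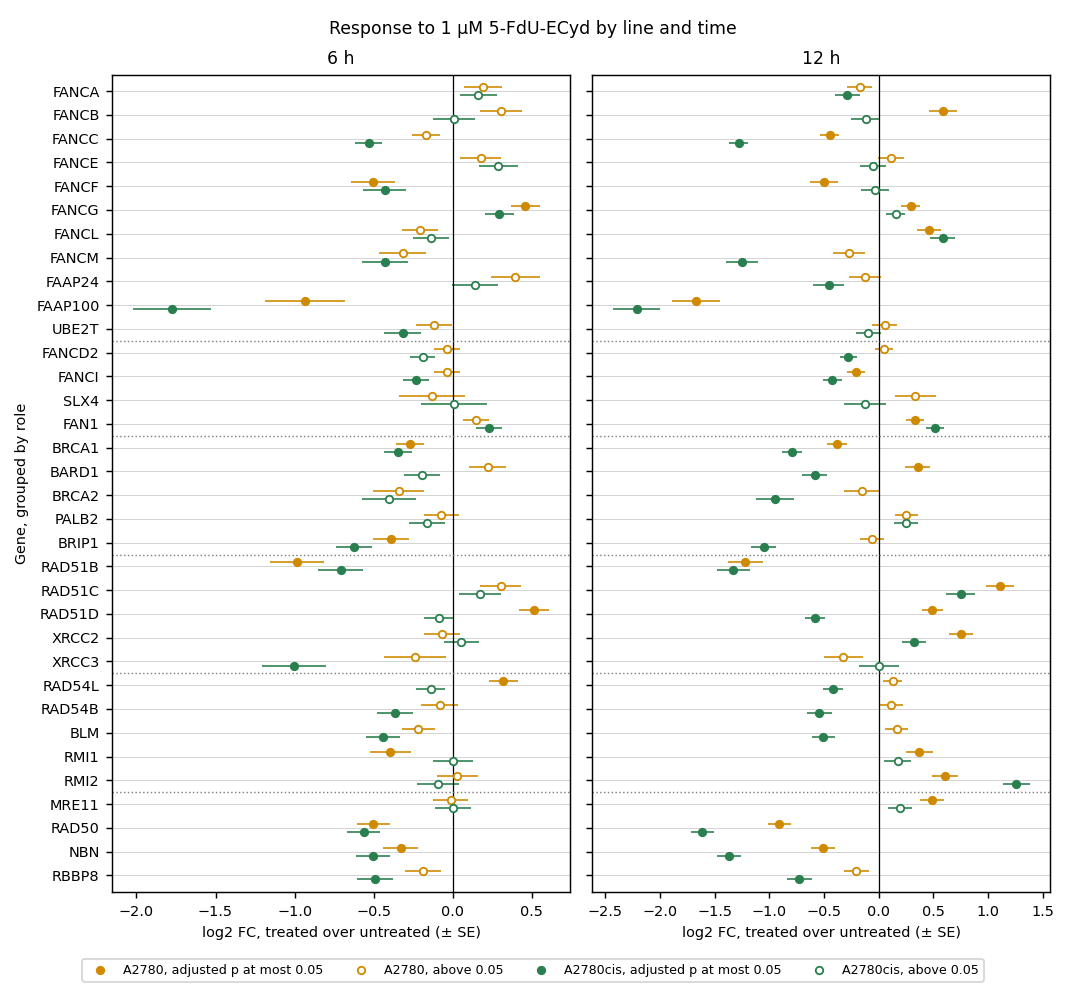
Log2 FC of treated over untreated cells (x axis, points with SE bars) for the 34 genes at 6 h (left) and 12 h (right) in A2780 (orange) and A2780cis (green), filled where the adjusted p was at most 0.05. At 12 h 19 filled green points lie left of 0 and 5 right of it, while the filled orange points are split into 8 and 11.

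The core complex and its partners (11 genes) held the strongest fall of the whole group. FAAP100, a scaffold subunit of the core complex, stood at 6.60, 9.46 and 13.3 CPM in untreated and 6.23, 4.81 and 4.22 CPM in treated A2780 cells of 6 h. At 12 h the values were 17.8, 18.5 and 19.5 CPM untreated and 3.57, 6.74 and 6.90 CPM treated. In A2780cis the untreated libraries had 15.3, 11.2 and 14.7 CPM at 6 h and 28.4, 38.5 and 46.7 CPM at 12 h, and the treated ones 3.03, 4.38 and 4.48 and 7.30, 9.30 and 7.79 CPM. Every treated library was below every untreated library of its line and time, although the lowest untreated A2780 library of 6 h (6.60 CPM) lay just above the highest treated one (6.23 CPM). The log2 FC was -0.93 ± 0.25 and -1.67 ± 0.22 in A2780 and -1.78 ± 0.25 and -2.21 ± 0.22 in A2780cis (adjusted p = 0.00721, 5.96e-07, 5.44e-06 and 2.49e-09). Without the third untreated library the 6 h call of A2780 was lost.

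FANCC, a core complex subunit mutated in a classical form of Fanconi anaemia, fell in A2780 only late and less than in A2780cis. Its A2780 levels were 38.02, 38.9 and 39.6 CPM untreated and 30.5, 27.5 and 27.5 CPM treated at 12 h, a log2 FC of -0.45 ± 0.09 (adjusted p = 0.000105). In A2780cis they were 57.4, 61.7 and 58.1 CPM untreated and 43.1, 39.4 and 40.05 CPM treated at 6 h, and 59.96, 60.5 and 60.5 against 26.3, 24.1 and 24.2 CPM at 12 h. The 12 h libraries of A2780cis were tightly grouped and far apart, with a log2 FC of -1.28 ± 0.09 (adjusted p = 4.69e-12), after -0.53 ± 0.09 at 6 h (adjusted p = 4.43e-05). FANCM, the translocase that anchors the core complex to DNA, fell from 29.6 ± 3.64 to 12.5 ± 1.13 CPM in A2780cis at 12 h (log2 FC -1.25 ± 0.15, adjusted p = 8.97e-08), and its partner FAAP24 fell there by 0.46 ± 0.14 on the log2 scale (adjusted p = 0.00758); neither passed the threshold in A2780 at either time.

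FANCG and FANCF, further core complex subunits, moved early and in opposite directions. FANCG rose from 43.1, 42.8 and 47.7 to 58.8, 61.3 and 63.6 CPM in A2780 at 6 h, with no overlap (log2 FC 0.46 ± 0.09, adjusted p = 0.000475). In A2780cis it rose from 45.6, 45.1 and 49.1 to 54.5, 60.5 and 56.6 CPM at 6 h (log2 FC 0.30 ± 0.09, adjusted p = 0.0155). FANCF fell from 11.5, 9.08 and 11.5 to 7.59, 6.29 and 8.74 CPM in A2780 at 6 h (log2 FC -0.50 ± 0.14, adjusted p = 0.00811). It was again lower in A2780 at 12 h (-0.50 ± 0.13) and in A2780cis at 6 h (-0.43 ± 0.13), but at 12 h its A2780cis levels were 11.02 ± 0.562 CPM untreated and 10.7 ± 0.391 CPM treated. The 6 h call of FANCF in A2780 was lost without the second treated library, and that of FANCG in A2780cis without the first or second untreated or the second treated library.

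FANCL, the ubiquitin ligase of the core complex, rose late in both lines. Its 12 h levels were 56.9, 54.1 and 46.7 CPM untreated and 81.8, 71.1 and 64.4 CPM treated in A2780 (log2 FC 0.46 ± 0.11, adjusted p = 0.000994). In A2780cis they were 36.6, 34.9 and 29.1 and 54.2, 44.04 and 52.7 CPM (log2 FC 0.58 ± 0.11, adjusted p = 8.25e-05). The treated and untreated libraries did not overlap in either line. UBE2T, the conjugating enzyme that FANCL works with, fell only in A2780cis at 6 h (-0.32 ± 0.12, adjusted p = 0.0384), a call that 7 alternative settings removed. FANCB rose in A2780 at 12 h (0.59 ± 0.13, adjusted p = 0.000387), FANCA fell in A2780cis at 12 h (-0.29 ± 0.11, adjusted p = 0.0334), and FANCE passed the threshold in none of the 4 treatment comparisons, with log2 FC between -0.05 and 0.29.

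FANCD2 and FANCI, the pair that the core complex marks with ubiquitin, moved little. FANCI, the most abundant of all members in counts, fell from 282 ± 21.97 to 210.3 ± 11.9 CPM in A2780cis at 12 h (log2 FC -0.42 ± 0.08, adjusted p = 0.000115). Its fall in A2780 at 12 h (-0.21 ± 0.08, adjusted p = 0.0371) became 0.01 under scaling by library size alone. FANCD2 fell in A2780cis at 12 h from 109 ± 6.68 to 90.1 ± 1.47 CPM (-0.28 ± 0.08, adjusted p = 0.00378) and stayed at 104 ± 2.98 and 107 ± 3.82 CPM in A2780. FAN1, a nuclease recruited by ubiquitinated FANCD2, rose in A2780cis from 48.6, 50.3 and 44.2 to 55.5, 58.6 and 53.995 CPM at 6 h (0.23 ± 0.08, adjusted p = 0.0352, a call that 7 alternative settings removed) and from 42.4, 43.3 and 44.5 to 56.7, 68.3 and 60.8 CPM at 12 h (0.51 ± 0.08, adjusted p = 6.37e-06). At 12 h it also rose in A2780 (0.33 ± 0.08, adjusted p = 0.00109), and SLX4, the nuclease scaffold, passed the threshold in neither line.

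Among BRCA1, BRCA2 and their partners, BRIP1, a helicase that binds BRCA1, fell strongly in the resistant line. BRIP1 levels in A2780cis were 66.8, 68.8 and 65.5 CPM untreated and 47.4, 44.3 and 38.9 CPM treated at 6 h (log2 FC -0.63 ± 0.11, adjusted p = 0.000159). At 12 h they were 59.96, 51.8 and 48.9 and 27.7, 27.96 and 21.8 CPM (log2 FC -1.05 ± 0.12, adjusted p = 1.87e-08). In A2780 the 12 h libraries overlapped, with 59.5, 56.4 and 44.6 CPM untreated and 52.1, 48.03 and 53.3 CPM treated (log2 FC -0.06 ± 0.11, adjusted p = 0.651), after a fall of 0.39 ± 0.11 on the log2 scale at 6 h (adjusted p = 0.011).

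BARD1, the partner of BRCA1 in its ubiquitin ligase, took opposite directions in the lines at 12 h. It rose in A2780 from 22.6, 21.02 and 21.02 to 29.01, 26.2 and 27.6 CPM (log2 FC 0.36 ± 0.11, adjusted p = 0.0101) and fell in A2780cis from 35.6, 32.6 and 27.5 to 23.3, 21.6 and 18.8 CPM (-0.59 ± 0.11, adjusted p = 9.03e-05), without overlap in either line. BRCA1 itself fell in all 4 comparisons, although 5 of 13 alternative settings removed the call of A2780 at 6 h and 1 that at 12 h. Its fall was largest in A2780cis at 12 h, from 118 ± 8.70 to 68.3 ± 5.50 CPM (-0.79 ± 0.09, adjusted p = 2.66e-08). BRCA2, which works on resected DNA, fell only in A2780cis at 12 h, from 33.3, 26.7 and 25.5 to 17.7, 16.4 and 10.3 CPM (-0.95 ± 0.17, adjusted p = 3.89e-05). PALB2, which bridges BRCA1 and BRCA2, passed the threshold in no treatment comparison, and its 12 h values of 0.25 ± 0.11 in A2780 and 0.25 ± 0.11 in A2780cis lay just above it (adjusted p = 0.0505 and 0.052).

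RAD51B, RAD51C, RAD51D, XRCC2 and XRCC3, 5 related genes whose products form complexes that act in strand exchange, did not move as one. RAD51C rose the most of all members in A2780 at 12 h, from 37.8, 35.96 and 31.5 to 80.4, 74.6 and 71.8 CPM (log2 FC 1.11 ± 0.13, adjusted p = 8.02e-08). In A2780cis it rose from 37.3, 33.3 and 26.2 to 56.8, 44.7 and 61.5 CPM (0.75 ± 0.13, adjusted p = 2.19e-05). XRCC2 rose in A2780 from 64.4, 61.4 and 56.3 to 99.4, 104 and 103 CPM (0.75 ± 0.11, adjusted p = 2.86e-06). At 6 h neither gene passed the threshold in either line, with log2 FC between -0.07 and 0.30. In A2780cis XRCC2 also rose at 12 h, with overlap between treated and untreated libraries (0.32 ± 0.11, adjusted p = 0.0148), a call lost in 4 alternative settings, among them without the third untreated or the second treated library.

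RAD51B, the one with the lowest level, went down throughout. Its levels in A2780 were 4.31, 5.68 and 4.73 CPM untreated and 2.22, 2.31 and 2.81 CPM treated at 6 h, and 4.16, 4.75 and 4.88 against 2.10, 1.81 and 2.04 CPM at 12 h. The log2 FC was -0.98 ± 0.17 (adjusted p = 0.000123) and -1.22 ± 0.16 (adjusted p = 5.6e-07). In A2780cis, where untreated cells had 10.1 ± 1.00 and 6.71 ± 0.678 CPM at the 2 times, the treated levels were 6.23 ± 0.738 and 2.67 ± 0.237 CPM, with log2 FC of -0.71 ± 0.14 and -1.33 ± 0.15 (adjusted p = 0.000419 and 3.82e-08). No treated library reached an untreated one of its line and time.

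RAD51D moved in opposite directions in the lines at 12 h. In A2780 its levels were 25.7, 26.3 and 29.2 CPM untreated and 37.4, 39.8 and 38.8 CPM treated at 6 h, and 27.9, 25.7 and 26.3 against 36.6, 37.8 and 37.6 CPM at 12 h. In A2780cis they were 42.8, 40.3 and 32.4 CPM untreated and 34.04, 37.02 and 37.4 CPM treated at 6 h, and 38.7, 37.7 and 40.5 against 26.4, 26.5 and 25.2 CPM at 12 h. The treated A2780 libraries thus lay near the level of untreated A2780cis cells, and the treated A2780cis libraries of 12 h near that of untreated A2780 cells. The log2 FC was 0.51 ± 0.10 and 0.49 ± 0.09 in A2780 (adjusted p = 0.000287 and 9.88e-05) and -0.09 ± 0.10 and -0.58 ± 0.09 in A2780cis (adjusted p = 0.523 and 8.89e-06). XRCC3 fell in A2780cis at 6 h, from 19.3 ± 2.40 to 9.58 ± 2.14 CPM (-1.001 ± 0.20, adjusted p = 0.000517), but 76.7% of its exonic bases lie in exons of KLC1 on the opposite strand, and the strand setting of the counting is not given in the sources used here, so its counts are uncertain.

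Of the genes for strand invasion and dissolution, RMI2, a subunit of the BLM complex, rose late. Its levels were 18.6, 20.6 and 22.5 CPM untreated and 34.5, 28.8 and 30.99 CPM treated in A2780 at 12 h (log2 FC 0.61 ± 0.12, adjusted p = 9.91e-05). In A2780cis they were 10.5, 14.5 and 11.6 and 31.4, 25.6 and 30.4 CPM, the strongest rise of any member (log2 FC 1.26 ± 0.12, adjusted p = 2.33e-09). At 6 h it did not pass the threshold in either line, with 14.4 ± 1.17 and 11.1 ± 1.08 CPM in treated cells against 14.1 ± 0.194 and 11.9 ± 1.04 CPM. BLM, the helicase of the same complex, went the other way in A2780cis, from 55.3 ± 6.63 to 39.002 ± 1.19 CPM at 12 h (-0.51 ± 0.11, adjusted p = 0.000201). RMI1, the third subunit, fell in A2780 at 6 h (-0.39 ± 0.13, adjusted p = 0.0216) and rose there at 12 h (0.37 ± 0.12, adjusted p = 0.0131), and passed the threshold at neither time in A2780cis. Of 13 alternative settings, 4 removed the 6 h call of RMI1 and 2 the 12 h call.

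RAD54L, a DNA translocase of strand invasion, rose in A2780 at 6 h from 42.4, 46.4 and 48.3 to 59.8, 57.2 and 53.998 CPM (0.32 ± 0.09, adjusted p = 0.0101), a call lost without the first untreated or the first treated library. In A2780cis it fell at 12 h from 54.9 ± 3.97 to 41.1 ± 3.72 CPM (-0.42 ± 0.09, adjusted p = 0.000304). Its relative RAD54B fell in A2780cis at both times (-0.37 ± 0.11 and -0.54 ± 0.11, adjusted p = 0.0171 and 0.000213), with the limit that 66.0% of its exonic bases are also exons of FSBP on the same strand.

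The end resection genes RAD50 and NBN fell in every treatment comparison. RAD50, the ATPase of the MRE11 complex, stood at 121, 117 and 112 CPM untreated and 75.8, 83.5 and 88.5 CPM treated in A2780 at 6 h, and at 122, 121 and 84.9 against 59.8, 58.6 and 55.9 CPM at 12 h. In A2780cis it had 176, 188 and 167 CPM untreated and 129, 117 and 114 CPM treated at 6 h, and 157, 147 and 137 against 49.5, 50.1 and 44.6 CPM at 12 h. All treated libraries were below the untreated ones of their line and time, and the third untreated A2780 library of 12 h lay below the other 2. The log2 FC was -0.50 ± 0.11 and -0.91 ± 0.11 in A2780 and -0.56 ± 0.10 and -1.61 ± 0.11 in A2780cis (adjusted p = 0.000833, 6.81e-08, 0.000196 and 2.67e-12). A readthrough gene annotated on the same strand covers 76.9% of the exonic bases of RAD50, so reads may be split between the 2.

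NBN, the subunit that ties the complex to the damage checkpoint, followed the same course. In A2780cis it went from 267, 245 and 219 CPM untreated to 107, 91.2 and 84.5 CPM treated at 12 h (log2 FC -1.37 ± 0.11, adjusted p = 8.84e-11), after -0.50 ± 0.11 at 6 h (adjusted p = 0.000936). In A2780 the log2 FC was -0.33 ± 0.11 at 6 h and -0.51 ± 0.11 at 12 h (adjusted p = 0.0259 and 0.000304). The third subunit did not share this fall: MRE11, the nuclease, rose in A2780 at 12 h from 48.9 ± 4.72 to 68.4 ± 2.40 CPM (0.49 ± 0.11, adjusted p = 0.000468) and had 30.2 ± 3.01 CPM untreated and 34.5 ± 3.73 CPM treated in A2780cis. RBBP8, which switches on the nuclease, fell in A2780cis at 6 h and 12 h (-0.49 ± 0.11 and -0.73 ± 0.12, adjusted p = 0.00188 and 6.23e-06), and its values of -0.19 ± 0.11 and -0.20 ± 0.11 in A2780 did not pass the threshold.

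**Figure D3:**
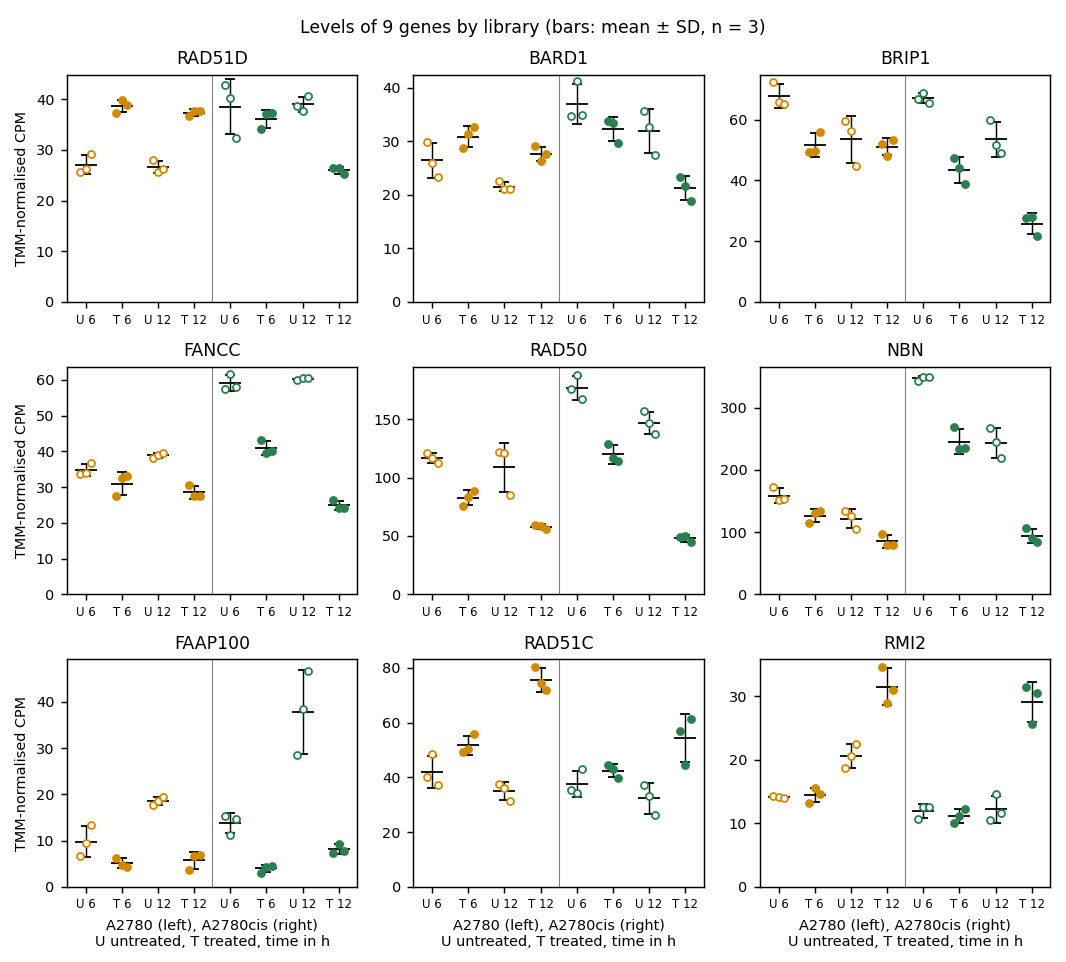
TMM-normalised CPM of 9 members in every library (points; open untreated, filled treated), with mean and SD bars (n = 3), for A2780 on the left and A2780cis on the right of each panel. RAD51D rises in A2780 and falls in A2780cis, FANCC, RAD50 and NBN fall further in A2780cis at 12 h, and RMI2 and RAD51C rise in both.

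Whether the platinum-resistant line responded differently was tested with the interaction of line and treatment, the log2 FC of A2780cis minus that of A2780. At 6 h, RAD51D was the only member past the threshold (difference -0.60 ± 0.14, adjusted p = 0.0118), and it was lost with no filter on low counts and when the compared libraries were fitted alone. So 1 member (2.94%) was lower and 0 were higher by edgeR, against 2.38% and 0.692% of all genes. At an unadjusted p under 0.05 the counts were 6 lower and 1 higher, and the DESeq2 Wald test called 2 lower and 0 higher.

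At 12 h the interaction separated the group. It was negative in 29 of 34 members and past the threshold in 16 of them, and positive and past the threshold in RMI2 alone. Members were therefore called lower in 47.1% and higher in 2.94%, against 14.0% and 9.70% of all genes tested, with a median difference of -0.39 against -0.04. RAD51D had a difference of -1.07 ± 0.13 (adjusted p = 3.51e-06), FANCC of -0.83 ± 0.12 (adjusted p = 3.24e-05), BRIP1 of -0.99 ± 0.16 (adjusted p = 9.33e-05) and BARD1 of -0.94 ± 0.16 (adjusted p = 0.000174). These 4 reached the difference by separate routes: RAD51D and BARD1 rose in A2780 and fell in A2780cis, BRIP1 fell in A2780cis and did not pass the threshold in A2780, and FANCC fell in both lines but further in A2780cis. At 12 h FANCC had means of 28.5 and 24.8 CPM in treated A2780 and A2780cis, against 38.8 and 60.3 CPM untreated. RAD51D had 37.4 and 26.0 CPM treated, against 26.6 and 39.0 CPM. BARD1 had 27.6 and 21.2 CPM treated, against 21.5 and 31.9 CPM. BRIP1 had 51.1 and 25.8 CPM treated, against 53.5 CPM untreated in both lines. A lower response thus did not always mean a much lower treated level. The others with a lower response in A2780cis were NBN, RAD50, FANCM, BLM, RAD54L, RAD54B, FANCB, BRCA2, BRCA1, RBBP8, FANCD2 and XRCC2, with differences between -0.98 ± 0.21 and -0.33 ± 0.11.

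By role, the negative interactions covered 4 of the 5 genes of the BRCA1 and BRCA2 group (all but PALB2), 3 of the 4 resection genes (all but MRE11), 3 of the 5 genes of strand invasion and dissolution, 2 of the 5 genes RAD51B, RAD51C, RAD51D, XRCC2 and XRCC3, 3 of the 11 core complex genes and 1 of the 4 genes of the FANCD2 step. Scaling by library size alone gave 18 lower and 1 higher member (share of all calls that were higher 27.0% in place of 41.0%), and 12 of the 17 calls held under every alternative setting. Of 19 settings, XRCC2 lost its call in 10, FANCD2 in 9, RBBP8 in 5, BRCA2 in 3 and BRCA1 in 2. FANCD2 was the only call of its step. Without the third untreated A2780 library of 12 h, 12 members were called.

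The growth of the response from 6 h to 12 h, the 12 h log2 FC minus the 6 h log2 FC of the same line, was tested in each line. In A2780 it was higher for XRCC2, RAD51C, RMI1, FANCL, RMI2 and MRE11 and lower for RAD50, that is 17.6% and 2.94% of members against 10.7% and 13.0% of all genes. The RAD50 call (adjusted p = 0.0483) was lost in 15 of 19 alternative settings, with adjusted p from 0.00252 to 0.235. Scaling by library size alone called 9 members, each of them higher (share of all calls that were higher 69.7% in place of 45.1%). XRCC2 had the smallest p, with 69.98 ± 6.80 CPM in treated cells of 6 h and 102 ± 2.29 CPM in those of 12 h, and a growth of 0.82 ± 0.16 (adjusted p = 0.000634). In A2780cis the growth was positive for RMI2, FANCL, XRCC3 and RAD51C and negative for RAD50, FANCC, NBN, FANCM, RAD51D, BRCA1, RAD51B, FAAP24 and FANCA, which was 11.8% and 26.5% against 10.3% and 13.6%. The RMI2 growth in A2780cis was 1.35 ± 0.18 (adjusted p = 1.27e-05) and that of RAD50 -1.05 ± 0.15 (adjusted p = 2.31e-05). The growth of RMI2, RAD51C and FANCL was thus positive in both lines. In A2780cis the growth calls of FANCA, RAD51B, FAAP24 and RAD51C were lost in 10, 7, 7 and 6 of 19 alternative settings. In A2780 those of MRE11 and RMI2 were lost in 4 and 3.

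Untreated cells of the 2 lines were compared over both times, with 6 libraries each. In A2780cis 12 members were higher and 6 lower, 35.3% and 17.6% against 31.1% and 30.2% of all genes tested. NBN led the higher ones, at 173, 151 and 152 CPM (6 h) and 135, 125 and 105 CPM (12 h) in A2780 and 343, 350.1 and 350.0 and 267, 245 and 219 CPM in A2780cis (log2 FC 1.07 ± 0.08, adjusted p = 3.23e-12). FANCC was at 33.7, 34.1 and 36.7 CPM in A2780 and 57.4, 61.7 and 58.1 CPM in A2780cis at 6 h (0.70 ± 0.06 over both times, adjusted p = 1.61e-10). RAD51B and RAD51D, whose untreated values are given above, were higher by 0.80 ± 0.10 (adjusted p = 1.68e-07) and 0.53 ± 0.07 (adjusted p = 1.69e-07). BARD1, RAD50, FAAP24, FAAP100, FANCA, FANCE, FANCM and FANCD2 were the other members higher in A2780cis, with log2 FC from 0.15 to 0.76.

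Lower in A2780cis was above all BRCA2. Its untreated levels were 84.1, 72.3 and 76.8 CPM at 6 h and 61.8, 58.3 and 43.2 CPM at 12 h in A2780, and 34.8, 33.99 and 26.7 and 33.3, 26.7 and 25.5 CPM in A2780cis, without overlap (log2 FC -1.11 ± 0.12, adjusted p = 5.41e-09). MRE11 had 57.6, 50.9 and 49.7 and 52.3, 50.8 and 43.5 CPM in A2780 and 36.1, 34.8 and 33.9 and 33.6, 28.9 and 28.02 CPM in A2780cis (-0.64 ± 0.08, adjusted p = 7.18e-08). FANCL had 68.9, 61.98 and 55.2 and 56.9, 54.1 and 46.7 CPM against 43.998, 43.9 and 50.5 and 36.6, 34.9 and 29.1 CPM (-0.54 ± 0.08, adjusted p = 1.85e-06), so that 1 untreated A2780 library of 12 h lay within the A2780cis range. FAN1 had 66.5, 58.1 and 63.7 CPM at 6 h and 55.2, 56.6 and 55.03 CPM at 12 h in A2780, above its untreated A2780cis libraries listed with the nucleases (-0.38 ± 0.06, adjusted p = 3.07e-06). Within the MRE11 complex the lines therefore differed in both directions, MRE11 being lower and RAD50 and NBN higher in A2780cis. Of the 18 calls 13 held in every setting, whereas over 21 settings FANCM lost its call in 12, FANCD2 in 6, PALB2 in 5 and FAAP100 and RMI2 in 1 each.

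**Figure D4:**
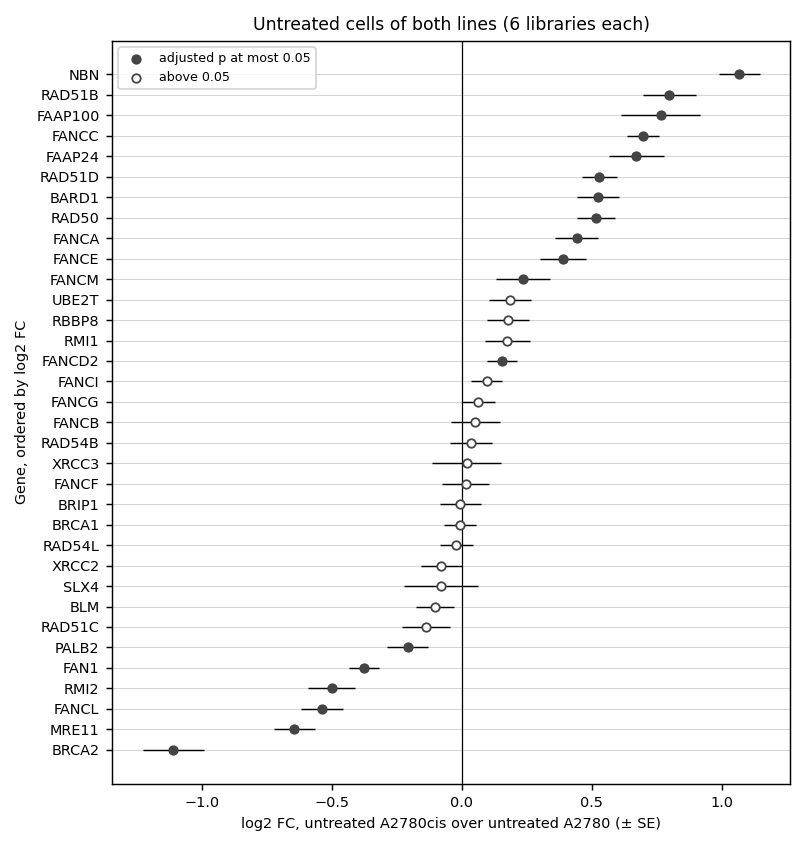
Log2 FC of untreated A2780cis over untreated A2780 cells (x axis, SE bars, 6 libraries per line) for the 34 genes in order of size, filled where the adjusted p was at most 0.05. NBN is the gene farthest above 0 at 1.07 and BRCA2 the one farthest below at -1.11.

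Untreated cells also moved between 6 h and 12 h of culture, which is the background of the treatment comparisons. In A2780 6 members were higher at 12 h (FAAP100, XRCC3, RMI2, FANCE, FANCG and RAD54L) and 7 lower (BRCA2, NBN, BLM, BRIP1, RBBP8, BRCA1 and FANCI), 17.6% and 20.6% against 16.6% and 10.3% of all genes. In A2780cis 7 were higher (FAAP100, XRCC3, SLX4, FANCE, FANCG, FANCA and RAD54L) and 11 lower, 20.6% and 32.4% against 18.0% and 21.9%. FAAP100 rose the most in both, by 0.94 ± 0.22 (adjusted p = 0.00402) and 1.46 ± 0.21 (adjusted p = 3.67e-05), so its treated level of 12 h was compared with a risen control. Under every alternative setting 2 of the 13 calls held in A2780 and 9 of the 18 in A2780cis: in A2780 their number was 3 without the first 6 h library and 4 without the third 12 h library in place of 13, and in A2780cis 10 without the third 12 h library in place of 18. Under scaling by library size alone the split was 7 higher and 3 lower in A2780 and 7 higher and 5 lower in A2780cis, where the share of all calls that were higher went from 61.7% to 71.9% and from 45.2% to 74.6%.

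The length of the genes moved with the response in A2780cis and with time in untreated cells of both lines. For the response of A2780 at 6 h, the relation was weaker than in A2780cis by Spearman's rho but not by Pearson's r. Members spanned 3.3 kb (FANCF) to 910.4 kb (RAD51B) of GRCh38 in GENCODE release 44, with a median of 74.4 kb. At 12 h in A2780cis, 13 of the 17 longer genes fell and 2 rose, with a median log2 FC of -0.59, against 6 that fell and 3 that rose of the 17 shorter ones, with a median of -0.05. Of all genes tested, 28.9% fell and 31.0% rose there. In A2780 at 12 h the longer genes were split into 5 higher and 5 lower and the shorter into 6 and 3. At 6 h in A2780, 0 of the longer genes rose and 5 fell, and of the shorter ones 3 rose and 3 fell. Across the 34 genes, which share the same libraries and are not independent replicates, Spearman's rho of log2 FC with length was -0.37 in A2780cis and -0.12 in A2780 at 12 h. For treatment at 6 h rho was -0.21 in A2780 and -0.37 in A2780cis. Pearson's r reversed the order of the lines at 6 h, with -0.255 for A2780 and -0.154 for A2780cis. The 12 h values of r were -0.097 (A2780) and -0.256 (A2780cis). The change of untreated cells over time had a rho of -0.47 (A2780) and -0.46 (A2780cis), and an r of -0.426 and -0.454. FAAP100 (14.1 kb) with the strongest fall and RMI2 (132.0 kb) with the strongest rise were exceptions in A2780cis, and the part of length in these results was not tested. The relation was not computed over all genes tested, so it cannot be called particular to these members.

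**Figure D5:**
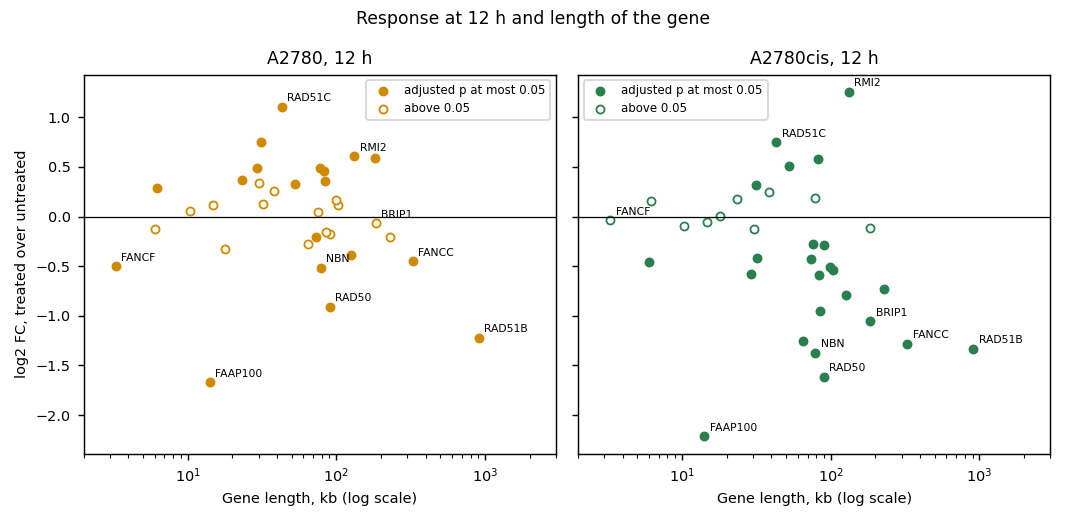
Log2 FC of treated over untreated cells at 12 h (y axis) against the length of the gene in kb (x axis, log scale) for the 34 members in A2780 (left) and A2780cis (right), filled where the adjusted p was at most 0.05. In A2780cis most genes longer than 74.4 kb lie below 0, whereas in A2780 they lie on both sides.

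The other genes of the 2 pathways, 45 in number, gave a similar split between the lines. At 12 h 15 rose and 9 fell in A2780 (median 0.14), whereas 11 rose and 18 fell in A2780cis (median -0.16), and the interaction was lower for 14 and higher for 3 (median -0.28). At 6 h 9 rose and 7 fell in A2780 and 8 rose and 11 fell in A2780cis. Of all genes tested, 28.6% rose and 26.1% fell in A2780 at 12 h, and 31.0% and 28.9% in A2780cis. At 6 h these shares were 16.0% and 13.4% in A2780 and 14.4% and 16.3% in A2780cis. The 12 h interaction was lower in 14.0% and higher in 9.70% of all genes. In A2780 the counts of the 45 genes thus lay near the shares of all genes. Of 24 S phase genes, 12 rose and 2 fell in A2780 at 6 h (median 0.25) and 10 rose and 10 fell at 12 h (median 0.01), while in A2780cis 5 rose and 6 fell at 6 h (median 0.01) and 4 rose and 12 fell at 12 h (median -0.33). Their summed level was 3782 to 3810.1 CPM untreated and 3834 to 4216 CPM treated in A2780 at 12 h, and 3739 to 3877 CPM against 3167 to 3568 CPM in A2780cis. The sum hides the split of A2780 at 12 h, where abundant genes weigh most. There the mean of PCNA went from 198 to 502 CPM. Those of MCM4, MCM6 and MCM7 went from 443, 297 and 382 to 335, 143 and 211 CPM. In A2780cis PCNA also rose, from 345 to 623 CPM. The S phase genes thus moved with the members in A2780cis at 12 h, and their part in the result was not tested.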

How the data were processed

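RNA of A2780 and A2780cis cells was sequenced in 24 libraries. Reads were trimmed by the authors, mapped to GRCh38 with STAR (version 2.5.2b per the labels) and summed over exons per gene by featureCounts, with fractions for reads with several alignments and with overlaps of several genes allowed. The deposited values are expected counts, not normalized, and values with a fraction made up 9.50% to 12.8% of each library. The strand setting is not given in the sources used here, and the labels describe single reads, the paper paired-end reads.

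Counts were rounded and analysed with R 4.3.3 and edgeR 4.0.16: filterByExpr (minimum count 10, minimum total 15), TMM normalization, a quasi-likelihood model with 1 coefficient per group (16 residual degrees of freedom), two-sided tests, Benjamini-Hochberg adjustment over 20240 genes and a threshold of 0.05. Standard errors were |log2 FC| over the square root of F. On simulated data of the A2780 12 h comparison (19242 genes), 98 of 100 genes changed by 1 on the log2 scale, 100 of 100 changed by 2 and 20 of 19042 unchanged genes were called. The simulation gave all genes the same fixed dispersion, kept the other groups at equal means and changed only genes with ample counts. It therefore checked the steps and does not give the error rates of these data. DESeq2 1.42.0 served as an alternative, with other scalings, no filter, counts not rounded, the compared libraries alone, a replicate block and each library left out. Same-numbered libraries did not consistently deviate together (r from -0.25 to 0.31 over the comparisons), so the numbers were not taken as pairs. With deviations from means of only 3 libraries, these correlations cannot exclude pairing. No 2 libraries of a group agreed within counting noise. Precision was limited by totals of 11077368 to 21901406 counts, and the reads carry no molecular identifiers.

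Exon overlap and gene lengths came from GENCODE release 44 and promoters from RefSeq. The members and gene lists were chosen with earlier results of these data known. Values of every library were given for up to 4 members with the smallest p in each direction of the treatment and line comparisons and up to 4 per interaction. Other experiments of the study were not analysed here.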

Additional observations from a re-analysis of the deposited data

Results flagged for a closer look

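The effect of treatment differed between the lines or between the times for the members listed here, by edgeR's test of the difference itself, and their standard errors and p-values are those of the comparisons above where given. At 6 h the log2 FC of A2780cis minus that of A2780 was past the threshold in 1 member, RAD51D -0.60. At 12 h the same difference was negative in the members with these values: RAD51D -1.07, FANCC -0.83, BRIP1 -0.99, BARD1 -0.94, NBN -0.86, RAD50 -0.70, FANCM -0.98, BLM -0.67, RAD54L -0.54, RAD54B -0.65, FANCB -0.71, BRCA2 -0.80, BRCA1 -0.41, RBBP8 -0.52, FANCD2 -0.33 and XRCC2 -0.43. It was positive in 1 member, RMI2 0.65. Of 19 alternative settings, XRCC2 lost its 12 h call in 10, FANCD2 in 9, RBBP8 in 5, BRCA2 in 3 and BRCA1 in 2.

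The response at 12 h minus that at 6 h in A2780 was positive in 6 members, with XRCC2 0.82, RAD51C 0.81, RMI1 0.76, FANCL 0.67, RMI2 0.58 and MRE11 0.50, and negative in 1, RAD50 -0.41. In A2780cis it was positive in 4 members, with RMI2 1.35, FANCL 0.72, XRCC3 1.00 and RAD51C 0.58. It was negative in 9 members of A2780cis, with RAD50 -1.05, FANCC -0.75, NBN -0.87, FANCM -0.82, RAD51D -0.49, BRCA1 -0.44, RAD51B -0.62, FAAP24 -0.60 and FANCA -0.45. RMI2, RAD51C and FANCL were positive and RAD50 negative in both lines, but the RAD50 call in A2780 was lost in 15 of 19 alternative settings. Those of MRE11 and RMI2 in A2780 were lost in 4 and 3. In A2780cis FANCA lost its call in 10 of 19, RAD51B and FAAP24 in 7 each and RAD51C in 6.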

How the results depend on the processing

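Calls of the members were most stable at 12 h: 14 of 19 in A2780, 21 of 24 in A2780cis and 12 of 17 in the interaction held in every setting, against 4 of 11 and 10 of 17 at 6 h. The 6 h interaction (1 member) gave 2 members with no filter on low counts (XRCC3 and FAAP100 in place of RAD51D), 2 with a replicate block, 2 with the DESeq2 Wald test and 0 with the compared libraries alone. The comparison of untreated A2780 cells over time gave 8 members with no filter (13 before), and that of A2780cis 11 with the compared libraries alone (18 before). Scaling by library size alone turned FANCI in A2780 at 12 h from -0.21 to 0.0126, since it moved the median of all genes from 0.02 to 0.24 there, and it took the members higher in A2780 at 6 h from 3 to 6 and in A2780cis at 12 h from 5 to 9. It moved that median by over 0.1 also in A2780cis at 12 h (0.04 to 0.15), in the 12 h interaction (-0.04 to -0.16), in the growth in A2780 (-0.02 to 0.13) and in untreated A2780cis over time (-0.09 to 0.06). Leaving out 1 library gave 6 to 13 members in A2780 at 6 h, 18 to 20 at 12 h, 11 to 16 in A2780cis at 6 h and 22 to 26 at 12 h. It gave 16 to 20 members between the untreated lines, 1 to 2 and 12 to 17 in the interactions of 6 h and 12 h, 5 to 8 and 10 to 14 for the growth in A2780 and A2780cis, and 3 to 14 and 10 to 18 for their untreated cells over time. The replicate block (the numbers were not taken as pairs, but pairing is not excluded) added 13 calls among 374 values of members and removed none. Over all genes it gave more calls in every comparison, as 6281 in place of 5950 in A2780 at 6 h. The other counts of members, both directions together, stayed within 1.5 times, also without RAD50, RAD54B and XRCC3, which share most exonic bases with another gene, an alternative chosen after seeing the data (22 calls in A2780cis and 18 in A2780 at 12 h). Beyond the construction of each setting, the cause of these changes was not tested. RAD51B had the lowest level, down to 1.81 CPM, and its calls in the treatment comparisons held in every setting. Whether depth limited the calls of low members was not tested.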
